A study of Homo sapiens with 10 samples.

Results

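The machinery of G2 and mitosis was followed here through 42 genes, taken by symbol from a given list and all found among the 23426 genes of the files. They fall into 7 groups by role: the cyclin-CDK engine (8 genes), mitotic kinases with TPX2 (4), the chromosomal passenger complex (4), the spindle checkpoint and anaphase control (7), the centromere and kinetochore (6), the spindle and chromosome structure (7), and the midzone and cytokinesis (6). RNA was sequenced from 2 established breast cancer cell lines, MDA-MB-468, which is basal-like and triple-negative, and ZR75-1, which is luminal and expresses the estrogen receptor. Each line was treated for 6 h with the multi-kinase inhibitor PKC412 (midostaurin) at 1 μM, with 3 samples analysed here, or with its solvent DMSO, with 2. The dose is that of the labels and methods, while legends of the study give a lower one for these samples, and the methods describe triplicates. No engineered allele is named for either line, each class is represented by 1 line, and the sources used here do not say whether the samples of a group were separate cultures, so p-values measure only the spread between these samples.

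A cell enters mitosis when CDK1, bound to cyclins A and B, is released from its inhibitory phosphates by CDC25 phosphatases. Aurora and polo-like kinases then build the spindle, kinetochores attach chromosomes to it, and the spindle checkpoint holds back the anaphase-promoting complex until attachment is complete. Transcripts of this programme accumulate in G2 and in mitosis and are low in resting cells, so that in a bulk sample a change in the number of cells in these phases and a change in the RNA per cell cannot be told apart.

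Promoters of such genes commonly carry a cell cycle homology region (CHR), which DREAM and MuvB complexes contact, and CCAAT boxes, which NF-Y binds. Promoter windows from 250 bases before to the first bases after the transcription start were at hand for 35 of the 42 genes (RefSeq, GRCh38.p14). A CHR element, spelled TTTGAA or TTCGAA on either strand, stood in 27 of the 35 windows (77.1%) and in 19.5% of the windows of 27305 genes. A CCAAT box on either strand stood in 29 windows (82.9%, against 39.7% of all genes), and both motifs were in 23 of the 35 (65.7%, against 7.85%). Matches are descriptions of letters, not of bound sites, and the letters of the 2 motifs can share bases. Shown are the 120 bases upstream of the start of CDC20, which had the lowest p-value between the lines, of PLK1 and PTTG1, whose PKC412 samples did not overlap their DMSO samples in either line, of CDCA8, a passenger gene, and of HMMR, which had the largest log2 difference with PKC412 in MDA-MB-468. All lie on the plus strand, and capitals mark the CHR elements and CCAAT boxes, the latter also as ATTGG on the reverse strand.
CDC20, chr1:43358861-43358980: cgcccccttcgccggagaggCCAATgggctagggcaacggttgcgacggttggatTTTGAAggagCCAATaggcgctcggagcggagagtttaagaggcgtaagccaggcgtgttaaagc
PLK1, chr16:23678769-23678888: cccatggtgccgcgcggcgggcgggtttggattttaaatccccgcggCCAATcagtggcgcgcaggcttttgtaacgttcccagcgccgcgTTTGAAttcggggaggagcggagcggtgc
CDCA8, chr1:37692396-37692515: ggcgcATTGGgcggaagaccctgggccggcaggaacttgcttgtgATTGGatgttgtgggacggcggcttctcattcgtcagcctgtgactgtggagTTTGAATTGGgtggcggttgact
HMMR, chr5:163460512-163460631: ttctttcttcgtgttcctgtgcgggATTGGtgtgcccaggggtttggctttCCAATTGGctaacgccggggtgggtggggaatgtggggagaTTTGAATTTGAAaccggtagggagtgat
PTTG1, chr5:160421735-160421854: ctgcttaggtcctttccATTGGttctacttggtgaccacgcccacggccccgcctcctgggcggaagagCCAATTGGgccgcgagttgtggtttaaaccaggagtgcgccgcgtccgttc
The CHR element began 65 bases upstream of the start in CDC20, 29 in PLK1, 23 in CDCA8, and 28 and 22 in HMMR, where 2 copies follow each other. PTTG1 had CCAAT boxes and no CHR letters in this stretch.

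Levels are FPKM, fragments relative to the length of the transcript and the mapped total, as the authors deposited them, and the number of reads behind a value is unknown. FPKM sums per sample lay between 599228 and 835069, and the 42 genes made up 0.10% to 0.370% of a sum. Markers went with the line labels: 8 of 11 tested basal markers were higher in MDA-MB-468 in DMSO and 1, CDH3, was lower, with a summed level of 2532 to 2760 FPKM against 41.2 to 55.1 in ZR75-1, while TP63 was near 0 in both lines. Of 13 luminal markers, 11 were lower in MDA-MB-468, at a summed 3121 to 6775 FPKM against 13828 to 24555, the exceptions being KRT19 and PGR. Exons of 8 of the 42 genes, PLK1 and FOXM1 among them, overlap an exon of another gene in the files, and 8, AURKA, CDC20 and UBE2C among them, have pseudogenes of their name, so that reads of these genes may have been divided. The samples also differed in how the level of a gene ran with the GC content of its transcript. This slope, the log2 deviation from the mean of the line per 10 percentage points of GC, was 0.373 and 0.06 in the DMSO samples of MDA-MB-468 and -0.287, -0.02 and -0.119 in its PKC412 samples. For ZR75-1 the slopes were 0.314 and -0.192 in DMSO and -0.107, 0.342 and -0.356 in PKC412. In MDA-MB-468 the DMSO samples thus had the highest slopes, while in ZR75-1 the treatments were mixed.

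The 42 genes moved together from sample to sample, also within a treatment. Their geometric mean was 14.1 and 20.9 FPKM in the DMSO samples of MDA-MB-468 and 31.5, 22.7 and 26.8 FPKM in its PKC412 samples, so the treatments did not overlap. For ZR75-1 the means were 5.83 and 11.4 FPKM in DMSO and 12.3, 4.32 and 17.0 FPKM in PKC412, and the lowest and the highest sample were both treated. In MDA-MB-468 the order of the samples by this level was the reverse of their order by GC slope, and in ZR75-1 it was so but for DMSO replicate 2 and PKC412 replicate 1, which changed places. The transcripts of the 42 genes are poor in GC, with a median of 42.9% (35.3% to 59.6%) against 49.9% over 14336 tested genes with a known transcript. The fold between the highest and the lowest of the 5 samples of a line had a median of 3.58 (MDA-MB-468) and 9.25 (ZR75-1) among the 21 genes of lower GC, and of 1.46 and 1.8 among the other 21. Across the 42 genes, which are not independent and share these libraries, the rank correlation of GC content with that fold was -0.67 for the former line and -0.83 for the latter.

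**Figure D1:**
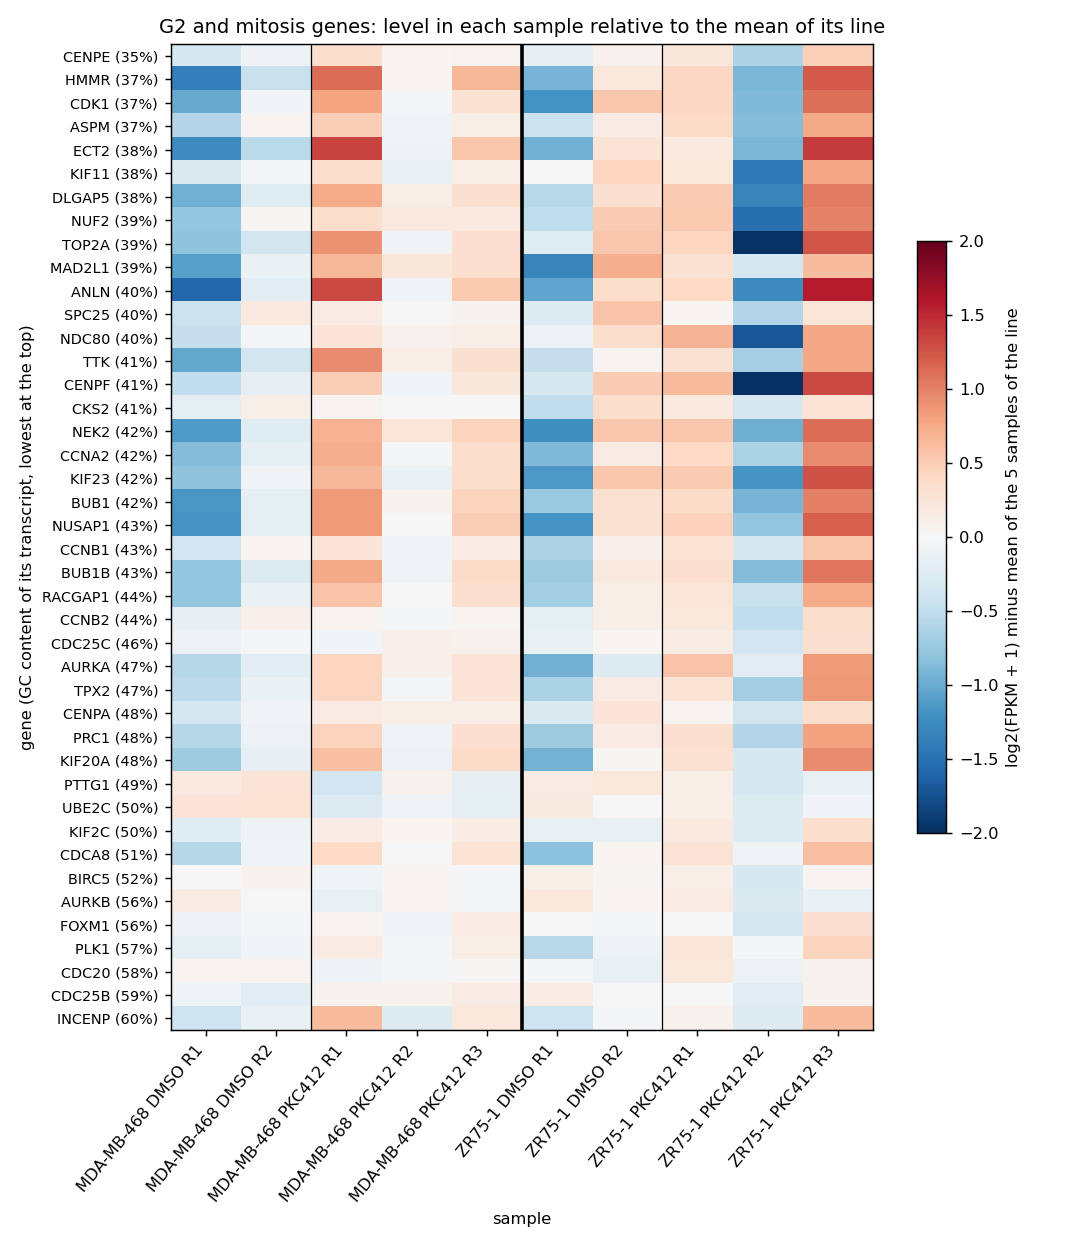
Colours give log2(FPKM + 1) of each gene minus the mean of the 5 samples of its line, with genes from low GC content (top) to high (bottom) and samples in columns. DMSO replicate 1 is blue for most genes in both lines, and PKC412 replicate 2 of ZR75-1 is the lowest of the 3 PKC412 samples for all 42 genes.

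**Figure D2:**
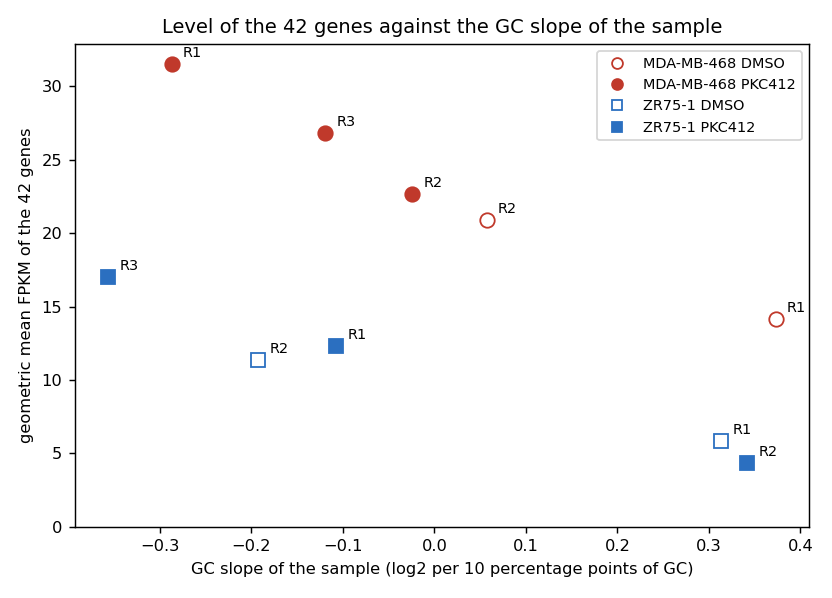
Each point is a sample, with its GC slope (log2 per 10 percentage points of GC) on the x axis and the geometric mean FPKM of the 42 genes on the y axis. The level falls from 31.5 to 14.1 FPKM (MDA-MB-468) and from 17.0 to 4.32 FPKM (ZR75-1) as the slope rises, and open symbols (DMSO) sit to the right in MDA-MB-468 and are mixed with filled ones (PKC412) in ZR75-1.

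PKC412 was compared with DMSO in each line by limma on log2(FPKM + 1) over 16071 genes, with 1 mean for each of the 4 groups and Benjamini-Hochberg adjustment. In MDA-MB-468 none of the 42 genes passed an adjusted p-value of 0.05, where 1.26% of all genes did. Of the 42, 3 (TTK, HMMR and UBE2C) had an unadjusted p-value under 0.05, a share of 7.14% against 16.4% of all genes. The spread in this fit is shared by both lines. With MDA-MB-468 fitted alone, 18 of the 42 had an unadjusted limma p-value under 0.05, against 4287 of 16071 genes. Without PKC412 replicate 2 of ZR75-1, 11 of the 42 had one, against 3203 of 16111 genes. The share of the 42 was then above that of all genes, and none of the 42 passed adjustment. Of the 42 differences, 37 were above 0 (88.1%, against 65.0% of all genes), with a median log2 difference of 0.54 against 0.11. In 27 genes every PKC412 sample was above both DMSO samples (64.3%, against 39.6% of all genes), and in 3 genes, CDC20, UBE2C and PTTG1, every PKC412 sample was below them (7.14%, against 16.3%). Rescaling the samples by median ratios moved the median of all genes to -0.02 and that of the 42 to 0.23, with 27 above 0. Without DMSO replicate 1, the sample with the highest GC slope, the median was 0.33. After the planned adjustment of FPKM for GC content and transcript length it was 0.39 (all genes 0.11), with 37 above 0. With the slopes entered as a covariate it turned to -0.07, with 19 genes above 0 and 23 below. Both DMSO samples had higher slopes than all PKC412 samples, so treatment and slope cannot be told apart here.

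In ZR75-1 none of the 42 genes passed either, with 0.946% of all genes called, and 2, AURKA and PLK1, had an unadjusted p-value under 0.05 (4.76%, against 11.2%). The median log2 difference was 0.29 against 0.07 for all genes, and 32 genes were above 0 (76.2%, against 65.2%). Only AURKA and PLK1 had every PKC412 sample above both DMSO samples (4.76%, against 14.8% of all genes), and only PTTG1 had every one below (2.38%, against 6.98%). The median rested on single samples: it was -0.06 without DMSO replicate 1, -0.02 without PKC412 replicate 3, 0.58 without DMSO replicate 2 and 0.72 without PKC412 replicate 2. The share with an unadjusted limma p-value under 0.05 moved too. Without PKC412 replicate 2 it was 12 of the 42, against 2479 of 16111 genes, and none of the 42 passed adjustment. With ZR75-1 fitted alone it was 0 of the 42, against 914 of 16071 genes. The difference between the responses of the lines reached an adjusted p-value of 0.05 for none of the 42 genes (0.268% of all genes) and an unadjusted one for CDC25B alone, at 0.37 (2.38%, against 7.05%). That difference was above 0, higher in MDA-MB-468, for 33 genes (78.6%, against 55.4% of all genes), with a median of 0.29 that was 0.00 without DMSO replicate 1 of MDA-MB-468 and -0.13 without PKC412 replicate 2 of ZR75-1.

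**Figure D3:**
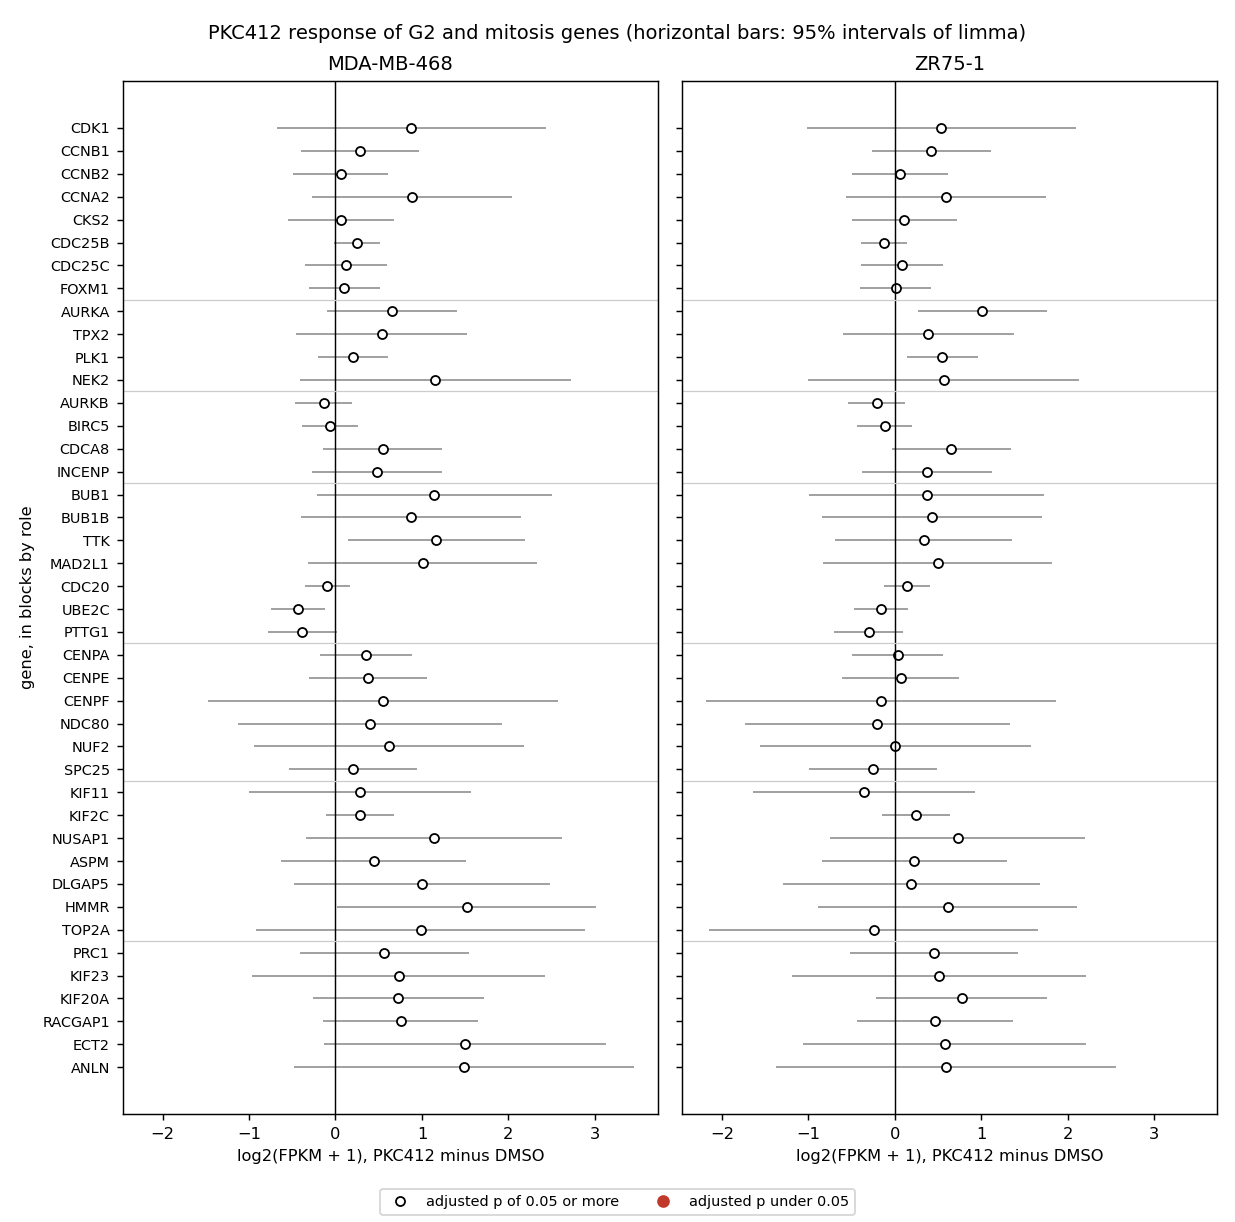
Points are limma log2 differences of FPKM + 1, PKC412 minus DMSO, for the 42 genes in blocks by role, with bars for the 95% intervals, in MDA-MB-468 (left) and ZR75-1 (right). All points are open, as no gene passed an adjusted p-value of 0.05, and most lie to the right of 0, with medians of 0.54 and 0.29.

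Among the mitotic kinases, AURKA, which matures centrosomes and builds the spindle, had the largest difference with PKC412 in ZR75-1. It was at 24.2 and 40.0 FPKM in DMSO and at 71.9, 41.4 and 87.5 FPKM in PKC412, so the treated samples were all higher, replicate 2 by little. The log2 difference was 1.01 (SE 0.33, limma adjusted p = 0.302), or 2.08-fold in the means. In MDA-MB-468 AURKA was at 33.2 and 42.8 FPKM in DMSO and at 67.1, 53.5 and 59.9 FPKM in PKC412, again without overlap, for a log2 difference of 0.65 (SE 0.33, limma adjusted p = 0.325). The gene lies on the minus strand at chr20:56369389-56392337 (GRCh38, GENCODE 29).

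PLK1, the polo-like kinase that drives mitotic entry and exit, was at 31.8 and 44.2 FPKM in DMSO and at 56.1, 46.6 and 64.8 FPKM in PKC412 in ZR75-1. All treated samples were above both controls, and the log2 difference was 0.55 (SE 0.18, limma adjusted p = 0.311). In MDA-MB-468 it was at 50.8 and 56.4 FPKM in DMSO and at 65.7, 56.6 and 63.3 FPKM in PKC412, where the lowest treated and the highest control sample nearly touched. Its log2 difference there was 0.20 (SE 0.18), and -0.13 after median-ratio rescaling. AURKA and PLK1 were thus the genes of the 42 whose PKC412 samples lay above DMSO in both lines, a pattern seen in 6.53% of all genes. TPX2, which activates AURKA on the spindle, and NEK2, a centrosome kinase, had log2 differences of 0.54 and 1.15 in MDA-MB-468, without overlap, and of 0.39 and 0.57 in ZR75-1, where the samples overlapped.

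In a contrast added after the data had been seen, the mean of the responses of both lines, none of the 42 genes passed either (1.74% of all genes did), and 8 had an unadjusted p-value under 0.05 (19.0%, against 24.4%). AURKA came closest, with a log2 difference of 0.83 (SE 0.23, limma adjusted p = 0.129).

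**Figure D4:**
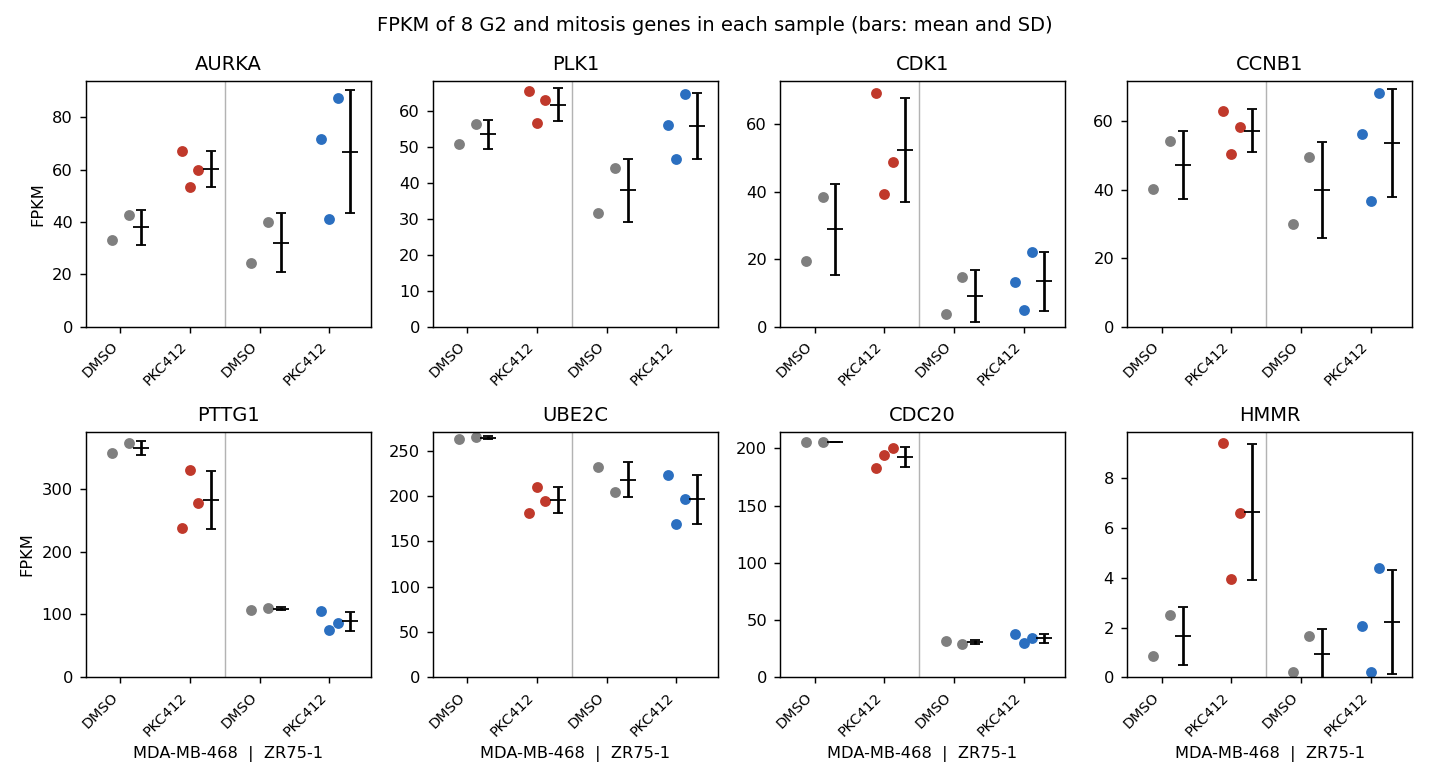
FPKM in each sample for 8 of the genes, with DMSO samples in grey and PKC412 samples in colour, MDA-MB-468 on the left of each panel and ZR75-1 on the right, and bars for the mean and SD, cut off at 0. AURKA sits higher in PKC412 in both lines and PTTG1 lower, CDC20 separates the lines, and PLK1 in MDA-MB-468 is higher by 0.20 on the log2 scale but lower by median-ratio rescaling.

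In the cyclin-CDK engine, CDK1, the kinase of mitotic entry, was at 19.3 and 38.4 FPKM in DMSO and at 69.3, 39.2 and 48.7 FPKM in PKC412 in MDA-MB-468. The groups did not overlap, but the highest control and the lowest treated sample nearly touched, and the log2 difference was 0.88 (SE 0.67), which turned to -0.21 with the GC slope as a covariate. In ZR75-1 CDK1 was at 3.70 and 14.6 FPKM in DMSO and at 13.3, 4.82 and 22.1 FPKM in PKC412, with overlapping groups and a log2 difference of 0.54 (SE 0.67) that was -0.33 without DMSO replicate 1.

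CCNB1, the B-type cyclin that CDK1 needs, was at 40.1 and 54.2 FPKM in DMSO and at 62.8, 50.4 and 58.2 FPKM in PKC412 in MDA-MB-468. In ZR75-1 it was at 29.9 and 49.6 FPKM and at 56.2, 36.7 and 68.0 FPKM. The groups overlapped in both lines, and the log2 differences were 0.28 (SE 0.30) and 0.42 (SE 0.30), the first turning to -0.05 with median-ratio rescaling. CCNB2, CKS2, CDC25C and FOXM1, the last a transcription factor of this programme, had differences between 0.01 and 0.12 in both lines. CCNA2, the A-type cyclin, had 0.89 in MDA-MB-468, without overlap, and 0.60 in ZR75-1. CDC25B, a phosphatase that starts CDK1 activation, was at 62.4 and 57.2 FPKM in DMSO and at 69.4, 70.1 and 74.2 FPKM in PKC412 in MDA-MB-468, a difference of 0.25 (SE 0.11) without overlap, against -0.13 in ZR75-1.

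The 3 genes of anaphase control had differences below 0 in MDA-MB-468, as had AURKB and BIRC5. PTTG1, the securin that guards sister chromatid cohesion, was at 356 and 372 FPKM in DMSO and at 238, 329 and 278 FPKM in PKC412 in MDA-MB-468. In ZR75-1 it was at 107 and 111 FPKM in DMSO and at 105, 75.4 and 86.0 FPKM in PKC412. The treated samples were below the controls in both lines, as in 3.49% of all genes. The log2 differences were -0.38 (SE 0.17, limma adjusted p = 0.310) and -0.30 (SE 0.17, limma adjusted p = 0.559). After adjustment for GC and length they were -0.15 and -0.14, and in ZR75-1 the groups then overlapped.

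UBE2C, the ubiquitin-conjugating enzyme of the anaphase-promoting complex, was at 263 and 266 FPKM in DMSO and at 182, 210.2 and 194 FPKM in PKC412 in MDA-MB-468. The treated samples were apart from the controls, with a log2 difference of -0.44 (SE 0.14). Its adjusted p-value was the lowest of the 42 genes in this line, 0.213 by limma. After adjustment for GC and length the difference was -0.12 (SE 0.17), and the groups overlapped. In ZR75-1 the values of UBE2C overlapped, at 232 and 204 FPKM and at 224, 169 and 197 FPKM, and the difference of -0.16 (SE 0.14) turned to 0.05 when every sample was scaled to the same FPKM sum. CDC20, the activator of that complex, was at 206 FPKM in both DMSO samples and at 183, 194 and 201 FPKM in PKC412 in MDA-MB-468, a difference of -0.10 (SE 0.11) that turned to 0.10 with equal FPKM sums and to 0.25 after adjustment for GC and length. In ZR75-1 CDC20 was at 0.14, with overlap.

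The checkpoint kinases and their partners were above 0 in MDA-MB-468. TTK, the kinase that sets the checkpoint going, was at 2.37 and 4.31 FPKM in DMSO and at 12.2, 6.51 and 7.62 FPKM in PKC412 in MDA-MB-468, with no overlap and a log2 difference of 1.16 (SE 0.44, limma adjusted p = 0.276). BUB1, BUB1B and MAD2L1, which carry the signal from unattached kinetochores, had differences of 1.14, 0.87 and 1.01 there, all without overlap, and of 0.37, 0.43 and 0.50 in ZR75-1, all with overlap. In MDA-MB-468 these 4 genes and the 3 anaphase genes thus stood on opposite sides of 0, save CDC20 in those fits, and their GC contents, 39.4% to 43.2% and 49.3% to 57.9%, did not overlap either.

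Of the chromosomal passenger genes, AURKB, the kinase of the complex, and BIRC5 (survivin) had small differences, at -0.14 and -0.07 in MDA-MB-468 and -0.21 and -0.12 in ZR75-1. In MDA-MB-468 these turned to 0.06 and 0.13 with equal FPKM sums. CDCA8 (borealin), which targets the complex to centromeres, was at 33.3 and 47.2 FPKM in DMSO and at 66.3, 49.5 and 60.3 FPKM in PKC412 in MDA-MB-468, and at 7.69 and 14.6 FPKM and 17.4, 13.5 and 22.2 FPKM in ZR75-1. The groups were apart in MDA-MB-468 and overlapped in ZR75-1, with log2 differences of 0.55 (SE 0.30) and 0.65 (SE 0.30). INCENP, the scaffold, had 0.48 and 0.37, with overlap in both lines.

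The largest differences in MDA-MB-468 were those of spindle and cytokinesis genes with little GC. HMMR, a spindle assembly factor with 36.7% GC, was at 0.854 and 2.50 FPKM in DMSO and at 9.37, 3.93 and 6.60 FPKM in PKC412, with no overlap and a log2 difference of 1.52 (SE 0.65, limma adjusted p = 0.301). ECT2, the exchange factor that activates RhoA for furrowing, and ANLN (anillin), the scaffold of the contractile ring, were 4.27-fold and 2.95-fold higher in the mean of PKC412, and their groups did not overlap. In these 3 genes the lower DMSO sample was replicate 1, whose GC slope was the highest of the line, and the highest PKC412 sample was replicate 1, whose slope was the lowest. In ZR75-1 the 3 genes had 0.61, 0.57 and 0.59, all with overlap.

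Of the 7 genes of the spindle and chromosome structure, 5 were higher without overlap in MDA-MB-468 (median log2 difference 0.98) and none in ZR75-1 (median 0.23), where 39.6% and 14.8% of all genes were. NUSAP1, which bundles microtubules, and DLGAP5, a spindle assembly factor, had 1.14 and 1.00 in MDA-MB-468, and KIF2C, a microtubule-depolymerising kinesin, had 0.29. Of the 6 midzone and cytokinesis genes 5 were higher without overlap in MDA-MB-468 (median 0.74, with the same 39.6% of all genes) and none in ZR75-1 (median 0.54, 14.8%). KIF20A, a kinesin that carries passenger proteins to the midzone, had 0.73 and 0.77 in MDA-MB-468 and ZR75-1. Of the 6 centromere and kinetochore genes 5 were higher without overlap in MDA-MB-468 (median 0.39, 39.6% of all genes), and in ZR75-1 their median was -0.08, with none apart.

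PKC412 replicate 2 of ZR75-1 stood out. It was the lowest of the 5 ZR75-1 samples for 25 of the 42 genes, and 6 genes stood at under 1/3 of DMSO replicate 1 there. CENPF, a kinetochore protein of 10307 transcript bases, was at 0.513 FPKM in it against 4.42 to 15.9 FPKM in the other 4 samples. TOP2A, the topoisomerase that untangles sister chromatids, was at 1.36 FPKM against 6.85 to 21.2 FPKM. CENPE, ASPM, KIF11 and NDC80 were the others, and DLGAP5 and NUF2 came next, at ratios of 0.355 and 0.364. All 6 transcripts were between 35.3% and 40.8% GC. CDK1, HMMR, ECT2 and MAD2L1 lay in that GC range too and were above DMSO replicate 1. Relative to DMSO replicate 1, which had a like GC slope, the median ratio of the 9 genes with transcripts over 4000 bases was 0.198 and that of the other 33 was 0.934. Of the 9, MAD2L1, ECT2 and PRC1 were above 1, at 2.38, 1.11 and 1.10. Over the 42 genes the rank correlation of this ratio was -0.21 with transcript length and 0.27 with GC content. The part of transcript length, RNA quality or library in these values was not tested.

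Since GC slope moved with the level of these genes, samples of the same line with like slopes were set side by side, a choice made after the data had been seen. In MDA-MB-468, PKC412 replicate 2 over DMSO replicate 2 gave a median ratio of 1.09 over the 42 genes, with 29 above 1 (54.2% of all genes were). AURKA stood at 1.25 and PLK1 at 1.00 in that ratio. In ZR75-1, PKC412 replicate 2 over DMSO replicate 1 gave a median of 0.877, with 16 above 1 (51.5% of all genes), and PKC412 replicate 1 over DMSO replicate 2 gave 1.10, with 30 above 1 (47.2%). AURKA was at 1.71 and 1.80 and PLK1 at 1.46 and 1.27 in these, each a ratio of single samples with no replicate check.

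When each sample's GC slope entered the fit as a covariate, also added after the data had been seen, 5 of the 42 genes were higher with PKC412 in ZR75-1, where 2.25% of all genes were. AURKA rose by a log2 difference of 0.87 (limma adjusted p = 0.00148) and PLK1 by 0.48 (limma adjusted p = 0.0135). CDCA8, KIF20A and NUSAP1 rose by 0.53, 0.58 and 0.43, with limma adjusted p-values of 0.0475, 0.0442 and 0.0371. With the planned adjustment for GC content and length, 172 of 16055 genes were called higher in ZR75-1 and 63 lower, but none of the 42. AURKA was then at 0.95 (limma adjusted p = 0.115), PLK1 at 0.57 (limma adjusted p = 0.440) and CDCA8 at 0.59 (limma adjusted p = 0.412). With the covariate none of the 42 was called in MDA-MB-468 (0.784% of all genes were called higher and 0.722% lower). There 7 of the 42 had an unadjusted limma p-value under 0.05, against 2074 of 16071 genes, and AURKA was at 0.14 and PLK1 at -0.05. In this line both DMSO samples had higher slopes than all PKC412 samples, so that treatment and slope cannot be told apart there. In the covariate fit the response of AURKA was lower in MDA-MB-468 than in ZR75-1 by a log2 difference of -0.73 (limma adjusted p = 0.0273, with 0.815% of all genes lower). This difference contains the MDA-MB-468 response, so treatment and slope cannot be told apart in it either. With the GC and length adjustment it was -0.42 (limma adjusted p = 0.893). Without covariate or adjustment it was -0.36 and was not called, and it ranged from -0.71 to -0.007 with single samples left out.

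The lines differed in the level of many of these genes, with drug and without. In DMSO 15 of the 42 genes were higher in MDA-MB-468 at a limma adjusted p-value of 0.05 (35.7%, against 26.5% of all genes) and none was lower (15.9% of all genes were). The median log2 difference was 0.80 against 0.11 for all genes, and 40 of the 42 were above 0 (95.2%, against 58.1%). In 23 genes the samples of MDA-MB-468 were all above those of ZR75-1 (54.8%, against 42.3% of all genes), and in FOXM1 all were below (2.38%, against 27.3%). With PKC412 the count was 19 (45.2%, against 37.0% of all genes), with none lower (21.6%), the median was 1.19 against 0.19, and 39 were above 0 (92.9%, against 61.3%). The 19 held the 15 called in DMSO plus ANLN, BUB1, CCNA2 and CDK1. The count was 30 without PKC412 replicate 3 of ZR75-1, where 6586 of 16016 genes were called higher. In PKC412, 22 genes did not overlap and were higher in MDA-MB-468 (52.4%, against 40.3%), and none was lower without overlap (24.2%). The median in DMSO was 0.48 without DMSO replicate 2 of MDA-MB-468 and 0.32 without DMSO replicate 1 of ZR75-1, and the median in PKC412 was 0.68 without PKC412 replicate 2 of ZR75-1. Of the 15 called in DMSO, 9 stayed called in each of the 18 alternatives, and BIRC5, CDC25C, CKS2, INCENP, NDC80 and TTK lost the call in at least 1. In DMSO, CDC25C, CKS2, INCENP, NDC80 and TTK lost it without DMSO replicate 2 of MDA-MB-468 and without DMSO replicate 1 of ZR75-1, and TTK also with other pseudocounts, without the filter on low FPKM, with equal FPKM sums and with untrended eBayes. Of the 19 called in PKC412, 14 stayed called in each of the 18, and ANLN, BIRC5, BUB1, CCNA2 and CDK1 did not.

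The calls were fewer among the genes of lower GC content. Of the 21 members of higher GC content 11 were called in each treatment, and of the 21 of lower GC content 4 in DMSO and 8 in PKC412. Of all genes, not split by GC content, 26.5% were called higher in DMSO and 37.0% in PKC412. The median SE in DMSO was 0.70 among the 21 of lower GC content and 0.25 among the other 21. After adjustment of FPKM for GC content and transcript length, 19 genes were called higher in DMSO (32.6% of all genes) and 29 in PKC412 (42.8%). They included all 15 and all 19. This adjustment was fitted within each line, to deviations from the mean of the line. It therefore could not remove a GC or length trend between the lines. Rescaling by median ratios took the median of all genes to 0.00 in DMSO and 0.01 in PKC412, and that of the 42 to 0.52 and 0.81. With it 15 genes were higher in DMSO (22.0% of all genes), of which 14 were among the 15 above, with CCNA2 in place of BIRC5, and 18 in PKC412 (28.0%), all among the 19. It also called FOXM1 lower in both, at -0.70 (20.1% of all genes were lower) and -0.73, and AURKA lower in PKC412, at -0.52 (limma adjusted p = 0.0170).

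**Figure D5:**
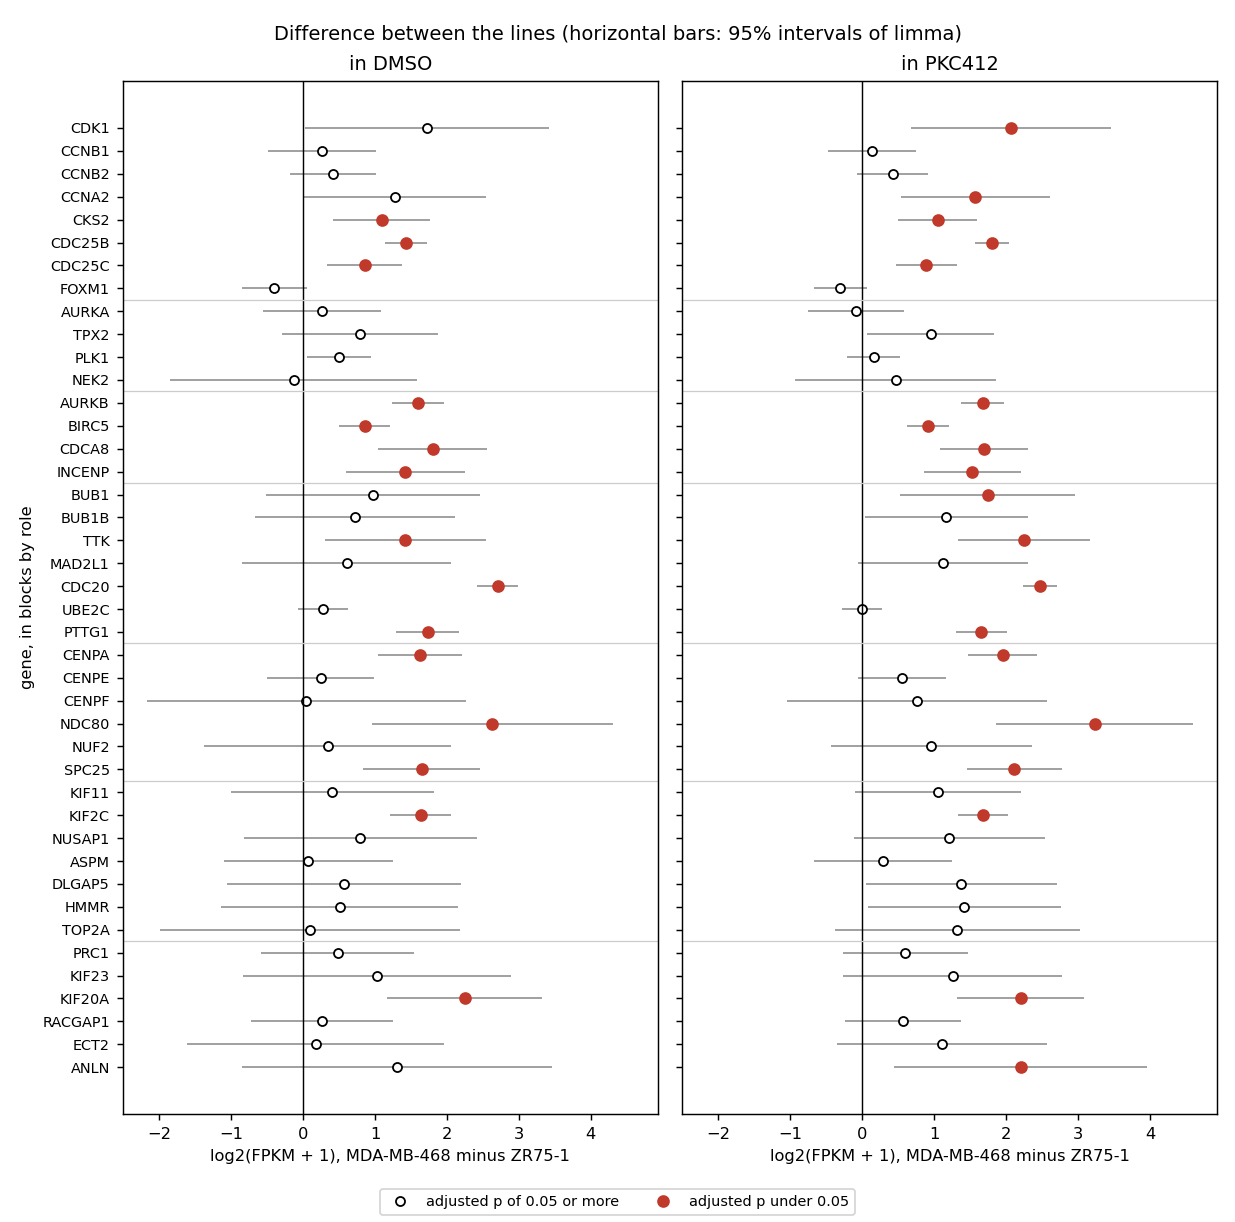
Points are limma log2 differences of FPKM + 1, MDA-MB-468 minus ZR75-1, in DMSO (left) and PKC412 (right), with bars for the 95% intervals and filled points for genes with an adjusted p-value under 0.05. In DMSO 15 genes and in PKC412 19 genes are filled, all to the right of 0, among them the 4 passenger genes, while AURKA, PLK1, FOXM1 and UBE2C are open in both.

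Among them were the 4 genes of the chromosomal passenger complex. AURKB was at 94.9 and 86.1 FPKM in the DMSO samples of MDA-MB-468 and at 31.0 and 27.5 FPKM in those of ZR75-1, 3.09-fold apart in the means and 1.60 on the log2 scale (SE 0.16, limma adjusted p = 8.45e-05). CDCA8 was higher by 1.80, INCENP by 1.42 and BIRC5 by 0.86, all called in DMSO and, at 1.69, 1.53 and 0.91, in PKC412. BIRC5 lost its call under median-ratio rescaling, at 0.55 in DMSO (limma adjusted p = 0.114) and 0.48 in PKC412 (limma adjusted p = 0.0769), and INCENP lost that in DMSO without DMSO replicate 2 of MDA-MB-468 (1.29, limma adjusted p = 0.0797) or DMSO replicate 1 of ZR75-1 (1.23, limma adjusted p = 0.0734).

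The widest gap by its error was that of CDC20. It was at 206 FPKM in both DMSO samples of MDA-MB-468 and at 32.1 and 29.5 FPKM in those of ZR75-1, which is 6.68-fold and 2.70 on the log2 scale (SE 0.12, limma adjusted p = 1.66e-06). In PKC412 it was at 183 to 201 FPKM against 29.9 to 37.9 FPKM, a log2 difference of 2.47. PTTG1 was higher by 1.73 in DMSO and 1.65 in PKC412. UBE2C, which works on the same complex, was at 263 and 266 FPKM against 232 and 204 FPKM in DMSO, a log2 difference of 0.28 (SE 0.15) that was not called, and its means were level in PKC412, at 195 and 197 FPKM.

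Of the checkpoint genes, TTK was called in both treatments (1.42 and 2.25) and BUB1 in PKC412 (1.74), while BUB1B and MAD2L1 were at 0.72 and 0.61 in DMSO and 1.17 and 1.12 in PKC412 without a call. At the centromere, CENPA, the histone that marks it, was higher by 1.62 and 1.95. NDC80, a microtubule-binding subunit of the kinetochore, was at 45.5 and 62.0 FPKM in the DMSO samples of MDA-MB-468 and at 6.45 and 9.27 FPKM in those of ZR75-1. This was 6.84-fold in the means, and the log2 difference was 2.63 (SE 0.73, limma adjusted p = 0.0194) in DMSO and 3.23 in PKC412. NUF2 and SPC25 belong to the same complex, and NUF2 was at 0.35 and 0.96 without a call while SPC25 was called at 1.65 and 2.11. CENPE and CENPF were not called in either treatment.

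Of the engine, CDC25B (1.43 and 1.80), CKS2 (1.09 and 1.05) and CDC25C (0.86 and 0.89) were called in both treatments, and CDK1 and CCNA2 in PKC412 (2.06 and 1.57). In DMSO the latter were at 1.72 (SE 0.74) and 1.28 (SE 0.55), uncalled. CCNB1 and CCNB2 were at 0.27 and 0.42 in DMSO and 0.13 and 0.42 in PKC412, uncalled. FOXM1 was at 28.3 and 30.2 FPKM in the DMSO samples of MDA-MB-468 and at 39.5 and 38.3 FPKM in those of ZR75-1, the only gene of the 42 with all samples lower in MDA-MB-468, at a log2 difference of -0.40 (SE 0.20, limma adjusted p = 0.141). It was called in both treatments when PKC412 replicate 2 of ZR75-1 was left out.

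Among spindle and cytokinesis genes, KIF2C (1.63 and 1.67) and KIF20A (2.24 and 2.20) were called in both treatments and ANLN in PKC412 (2.20). None of the other 10 was called, among them TOP2A at 0.09 and 1.32 and PRC1, the bundler of midzone microtubules, at 0.48 and 0.60. None of the 4 genes in the group of mitotic kinases with TPX2 was called, unlike AURKB and TTK, kinases placed in other groups. AURKA differed by 0.27 (SE 0.36) in DMSO, with a sign that turned to -0.03 under median-ratio rescaling, and by -0.09 (SE 0.29) in PKC412. It was at -0.08 in DMSO without DMSO replicate 1 of ZR75-1, and at 0.13 in PKC412 without PKC412 replicate 3 of that line. PLK1 differed by 0.50 (SE 0.20, limma adjusted p = 0.0715) in DMSO and by 0.16 in PKC412.

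Other genes of the pathway were counted from 7 further lists between the lines, where 26.5% of all genes were higher in MDA-MB-468 and 15.9% lower in DMSO, and 37.0% and 21.6% in PKC412. Of 36 S-phase genes, 25 were higher in DMSO (69.4%) and 33 in PKC412 (91.7%), none lower, with medians of 1.34 and 1.55, and none was called in either drug response. PCNA, the sliding clamp of DNA replication, was at 296 and 473 FPKM in the DMSO samples of MDA-MB-468 and 35.2 and 74.7 FPKM in those of ZR75-1. Of 34 tested kinetochore and checkpoint genes outside the 42, 11 were higher in DMSO (32.4%) and 23 in PKC412 (67.6%), and 1 was lower in PKC412. Of 22 condensin and cohesin genes, 3 were higher in DMSO (13.6%, below the share of all genes) and 12 in PKC412 (54.5%), with CDCA5 (sororin) at 2.28 in both, and 1 was lower in PKC412. Of 40 tested spindle and cytokinesis genes outside the 42, 11 were higher (27.5%, near that share) and 2 lower in DMSO, and 20 were higher (50%) and 4 lower in PKC412. Of 21 MuvB, MYB and E2F regulators 5 were higher (23.8%) and 1 lower in DMSO, and 12 (57.1%) and 2 in PKC412, led by the NF-Y subunit NFYC at 2.34 and 2.21. Of 16 genes of the anaphase-promoting complex and its enzymes 1, ANAPC16, was higher in DMSO (6.25%) and 1, ANAPC2, lower, and 5 (31.2%) and 2 in PKC412. Of 15 G2 brakes and arrest genes, 4 were higher (26.7%) and 4 lower in DMSO, with a median of -0.19, and 3 were higher (20%) and 4 lower in PKC412, with a median of 0.28.

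In the drug responses 3 genes of these lists were called. CDKN1A (p21), an inhibitor of cyclin-dependent kinases, was at 27.2 and 28.2 FPKM in DMSO and at 60.4, 59.4 and 61.7 FPKM in PKC412 in MDA-MB-468, where it rose by 1.10 on the log2 scale (SE 0.14, limma adjusted p = 0.0104). It was at 157 and 208 FPKM and at 204, 249 and 209 FPKM in ZR75-1, where the groups overlapped and it was not called. GADD45B, a stress gene of the G2 checkpoint family, was at 51.4 and 43.0 FPKM in DMSO and at 18.2, 21.7 and 22.3 FPKM in PKC412 in MDA-MB-468, and fell by 1.15 (SE 0.18, limma adjusted p = 0.0271). In ZR75-1 its treated samples were below the controls too, at 24.8 and 24.0 FPKM in DMSO and 17.8, 20.3 and 13.4 FPKM in PKC412, without a call. TACC2, which belongs to a family of centrosome and spindle proteins, rose in both lines, from 3.27 and 4.12 FPKM to 10.9, 8.70 and 10.4 FPKM in MDA-MB-468 and from 3.36 and 5.01 FPKM to 16.0, 15.3 and 21.9 FPKM in ZR75-1. Its log2 differences were 1.23 (limma adjusted p = 0.0397) and 1.85 (limma adjusted p = 0.00781), and all treated samples lay above all controls.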

How the data were processed

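The authors deposited FPKM per gene symbol, one table per sample, made with an in-house pipeline. The submitters' processing notes name CASAVA 1.82, TopHat2 and hg19; the quantifier and the annotation are not given in the sources used here. Library depth is therefore unknown, and precision was taken from the spread between replicates. Each sample was assigned to its group by its labels. One limma fit (version 3.58.1, R 4.3.3) with a trended eBayes served all contrasts; it took log2(FPKM + 1) of all 10 samples, 1 mean per group, 6 residual degrees of freedom and the 16071 genes whose mean FPKM passed 0.1 in some group. Adjusted p-values are Benjamini-Hochberg over all of these. With 2 samples against 3 an exact permutation test cannot give a p-value under 0.1. The fit was run on simulated data with independent noise of 1 size for all genes. That simulation held no GC slopes and no outlying sample, so it does not show how the fit behaves with the spread seen here. GC content and length came from the longest coding transcript in GENCODE 29. Values on this scale understate the change of genes with low FPKM.

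The genes, lists and motifs were chosen with earlier results of these data known. All 42 genes could be named; of each other list, up to 3 genes per contrast past the threshold with the largest absolute differences could be, and line markers. Alternatives were pseudocounts, filters on low FPKM, 2 rescalings, a replicate block, an untrended eBayes and each line alone. Others were adjustment for GC content and length within each line, and leaving out each sample. Replicate numbers did not pair the samples.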

Additional observations from a re-analysis of the deposited data

How the results depend on the processing

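Under the pseudocounts, filters, rescalings, untrended eBayes and single-line fits no count of called genes left 1.5 times its value and no median over the 42 changed direction. Median-ratio rescaling lowered the medians to 0.23 in MDA-MB-468, 0.13 in ZR75-1, 0.17 for the difference of the responses, and 0.52 and 0.81 between the lines in DMSO and PKC412, and equal FPKM sums raised that of ZR75-1 to 0.47. With the GC slope as a covariate the medians were -0.07 in MDA-MB-468, 0.14 in ZR75-1 and -0.14 for the difference. The genes called in ZR75-1 then went from 0 to 5 and those whose response differed between the lines from 0 to 1. With the GC and length adjustment the medians were 0.39 in MDA-MB-468, 0.23 in ZR75-1 and 0.14 for the difference. Those called between the lines in PKC412 then went from 19 to 29. Leaving out each sample, counts between the lines ranged from 10 to 19 in DMSO and from 15 to 30 in PKC412, and no gene was called in a response. In PKC412 the fit with 30 called 6586 of 16016 genes higher, and the fit with 15 called 4934 of 16034. Medians with each sample left out ranged from 0.33 to 0.75 in MDA-MB-468, from -0.06 to 0.72 in ZR75-1 and from -0.13 to 0.57 for the difference of the responses. Between the lines they ranged from 0.32 to 1.19 in DMSO and from 0.68 to 1.64 in PKC412. Signs turned for PLK1 in MDA-MB-468 (0.20; -0.13 with median-ratio rescaling and -0.054 with the covariate), CCNB1 there (-0.045 and -0.18), CDK1 there (-0.21 with the covariate), UBE2C in ZR75-1 (0.051 with equal FPKM sums and 0.053 with the GC and length adjustment) and AURKA between the lines in DMSO (-0.033 with median-ratio rescaling). With single samples left out CDK1 in ZR75-1 ranged from -0.33 to 1.40, and AURKA between the lines from -0.084 to 0.62 in DMSO and from -0.40 to 0.13 in PKC412. The causes were not tested.

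Same-numbered samples did not deviate together: the correlation of their deviations over 7685 genes was -0.69 and -0.60 in MDA-MB-468 and 0.08 and -0.62 in ZR75-1. A fit with the replicate block, which has 2 residual degrees of freedom, called none of the 16071 genes in a response. That it called none of the 42 therefore says nothing about them. It gave medians over the 42 of 0.51 in MDA-MB-468, -0.02 in ZR75-1 and 0.57 for the difference. Depth could not be weighed, since FPKM keep no read counts.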
